A study of Mus musculus with 51 samples.

Results

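SV40-transformed mouse embryonic fibroblasts (MEFs) that received an HMGN5 construct were compared directly with the same line after an HMGN2 construct. The 6 arrays of the comparison, 3 labelled MEFs HMGN5 OE and 3 labelled MEFs HMGN2 OE (OE for overexpression), were taken by their titles from the 51 arrays of the series. The series measured RNA on Affymetrix mouse expression arrays in fibroblasts and insulinoma cells in which single HMGN proteins were lost or added. The comparison addresses which genes differ between fibroblasts given 1 family member and fibroblasts given another. All 24 arrays of the SV40-transformed line, 8 groups of 3, shared 1 estimate of the spread.

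Per the labels, both groups and their empty vector control came from 1 commercial fibroblast line grown in DMEM with serum. Each group was infected with retrovirus in 5 µg/ml polybrene, selected for 7 days in 1 µg/ml puromycin and kept for 24 h without selection before total RNA was taken. The control, labelled empty vector OE and called vector here, went through the same infection and selection. Per the series' design text, the infected cells were collected as pools rather than clones, and the amount of HMGN protein was about doubled. SV40 transformation is shared by all groups, so no group stands for an untransformed fibroblast. The labels leave unstated whether the 3 arrays of a group came from separate infections or cultures, so the p-values measure the spread between these arrays, which may be technical.

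HMGN proteins are a family of small chromatin proteins that attach to the nucleosome core, compete with linker histone H1 and loosen the packing of chromatin. HMGN2 is expressed in most vertebrate cells, whereas HMGN5 carries a long acidic tail and binds nucleosomes as well. Embryonic fibroblasts keep a positional identity in their Hox and other patterning genes, secrete extracellular matrix, and answer viral nucleic acid and interferon with a large set of antiviral genes.

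The genes of the constructs give a first look at the labels. The Hmgn5 probe set did not follow the label. Its log2 intensity was 7.63, 7.59 and 7.64 in the arrays labelled HMGN5, 8.19, 8.43 and 8.25 in those labelled HMGN2 and 8.48, 8.47 and 8.69 in those labelled vector. The library labelled HMGN5 thus had the lowest Hmgn5 signal of the 3, without overlap, and lay below HMGN2 by a difference of -0.67 ± 0.09 (standard error, n = 3 arrays per group, limma adjusted p = 1.71e-06 over all probe sets). Nothing in the sources used here says whether the RNA of either construct holds the stretch that a probe set reads, so the probe sets cannot tell whether a construct was expressed. HMGN5 and HMGN2 therefore stand here for the pools so labelled. The probe set shared by Hmgn2 and 3 pseudogene loci was 12.22, 12.26 and 12.38 in HMGN5, 11.84, 12.18 and 11.99 in HMGN2 and 11.86, 11.83 and 11.99 in the vector pool. It was higher in the HMGN5 pool than in the HMGN2 pool by 0.29 ± 0.08. Of the endogenous relatives, the 3 bright Hmgn1 probe sets were higher in HMGN5 (0.28, 0.38 and 0.54), and both Hmgn3 probe sets were lower (-0.30 and -0.26).

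Array medians and spread differed little between the 2 pools, whereas a measure of RNA degradation was lower on average in HMGN2. The Actb control probe sets, whose 3′ minus 5′ log2 difference grows as RNA is degraded, gave 0.176 to 0.248 in HMGN5, 0.00720 to 0.196 in HMGN2 and 0.233 to 0.290 in the vector arrays. The mean Actb difference was 0.0903 in HMGN2, the lowest of the 8 groups, and 0.212 in HMGN5. The array medians of the linear intensity lay between 18.8 and 19.5 in the 3 groups, and no pair of arrays held identical values. The median standard deviation of a gene within a group was 0.069 in HMGN5, 0.088 in HMGN2 and 0.074 in the vector group on the log2 scale. It was larger in the groups labelled HMGN1_N2swap (0.126) and HMGN1_N3swap (0.111), which shared the estimate of the spread. Their Actb differences were larger too, at 0.394 to 0.789 and 0.470 to 0.772. The 3 arrays per group limit the precision.

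Of 13469 genes tested, 3745 were higher and 2891 lower in the HMGN5 pool than in the HMGN2 pool at a limma adjusted p below 0.05, so 49.3% of the genes were called. The share called higher was 27.8% and the share called lower 21.5%, and these shares are the background against which every count of list members is read. The median difference over all genes was 0.06 on the log2 scale. Large differences were fewer: 1813 called genes differed at least 1.5-fold (890 higher, 923 lower) and 218 at least 4-fold (92 higher, 126 lower). Against the vector pool, 41.5% of genes were called in HMGN5 and 44.3% in HMGN2, and both of these comparisons use the same 3 vector arrays. The shares were 20.7% higher and 20.8% lower in HMGN5, and 18.7% higher and 25.6% lower in HMGN2. They are the background for every count against vector. Differences are log2 HMGN5 minus HMGN2 unless another pair is named, and each gene is given by its brightest probe set unless another of its probe sets is mentioned. Where the mean of 1 pool lay below a log2 intensity of 3.63, under which dim probe sets were left out, that level served as a floor and the fold is a bound written as "at least". The 3 HMGN5 values and the 3 HMGN2 values did not overlap for 60.9% of all tested genes, 34.7% with HMGN5 higher and 26.2% with HMGN5 lower, so a lack of overlap alone is common here.

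**Figure D1:**
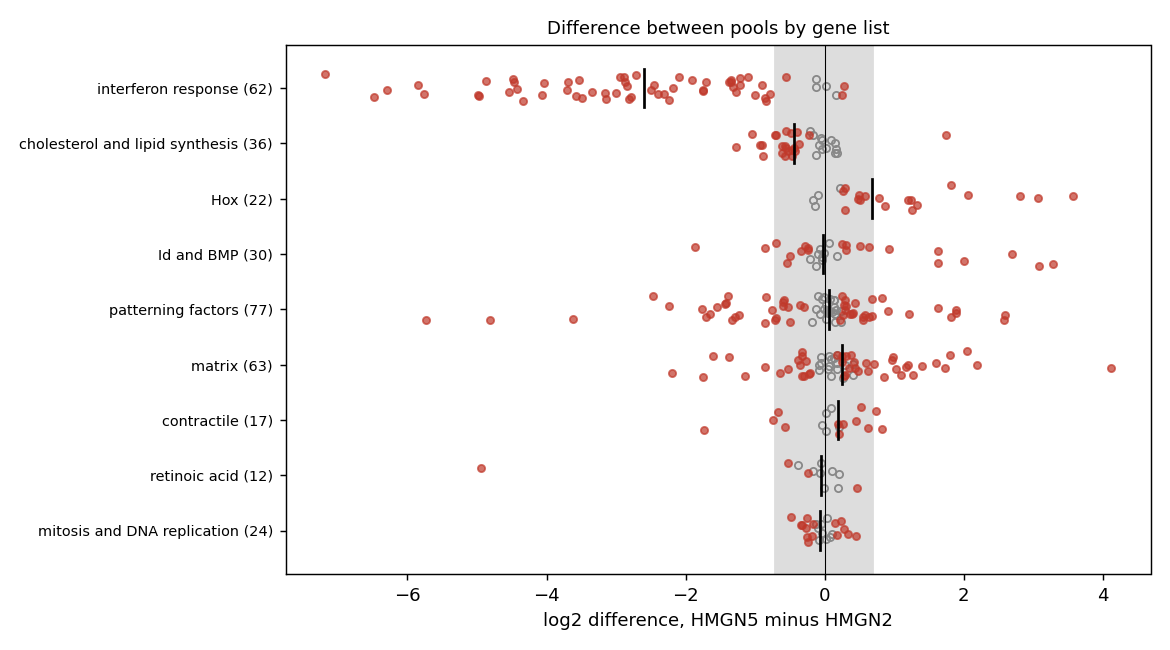
Log2 difference HMGN5 minus HMGN2 (horizontal axis) of the genes of 9 lists that passed the filter, 1 point per gene, filled where limma called the gene and open where not, with the number of genes in brackets and the median as a black bar. The grey band holds the 5th to 95th percentile of all 13469 genes (-0.72 to 0.69); interferon response genes lie mostly left of it, 19 of the 22 Hox genes lie right of 0, and patterning genes spread to both sides.

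Interferon response genes separated the pools most. Of 68 listed genes, 64 had a probe set of their own and 62 passed the filter, and of these 56 were lower and 2 higher in HMGN5, where 21.5% and 27.8% of all genes were. Their median difference was -2.60, beside 0.06 over all genes, and it stayed at -2.60 with the 6 genes that had only a bound set to that bound. The vector pool mostly lay between the 2. Against vector, 59 of the 62 were higher and 1 lower in HMGN2 (median 1.95), while 8 were higher and 34 lower in HMGN5 (median -0.54).

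Many of these genes share a promoter word, the core of the interferon-stimulated response element, to which IRF factors and the complex of STAT and IRF proteins downstream of the interferon receptor bind. Each line gives a stretch of the gene's own strand, 5′ to 3′, from the 250 bases before the RefSeq gene start (assembly GRCm38.p6). The capitals mark a pair of GAAA parted by 2 bases of any kind, or, on the other strand, a pair of TTTC parted likewise, and overlapping matches are joined.
Ifit1, chr19:34640784-34640833, plus strand: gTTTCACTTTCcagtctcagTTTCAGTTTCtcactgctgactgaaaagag
Gbp3, chr3:142559985-142560034, plus strand: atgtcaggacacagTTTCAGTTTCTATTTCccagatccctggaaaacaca
Irgm2, chr11:58214893-58214942, plus strand: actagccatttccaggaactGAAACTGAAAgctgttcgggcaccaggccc
Cxcl10, chr5:92349073-92349122, minus strand: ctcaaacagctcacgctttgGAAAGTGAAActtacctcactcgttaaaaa
Rsad2, chr12:26456543-26456592, minus strand: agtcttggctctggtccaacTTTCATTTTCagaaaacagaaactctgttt
Oas1a, chr5:120907526-120907559, minus strand: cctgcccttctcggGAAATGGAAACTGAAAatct
Bst2, chr8:71537567-71537616, minus strand: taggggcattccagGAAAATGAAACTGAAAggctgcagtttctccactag
Stat2, chr10:128270256-128270305, plus strand: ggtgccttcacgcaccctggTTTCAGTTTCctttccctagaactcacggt
B2m, chr2:122147528-122147577, plus strand: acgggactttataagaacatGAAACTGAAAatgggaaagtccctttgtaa
Socs1, chr16:10785584-10785633, minus strand: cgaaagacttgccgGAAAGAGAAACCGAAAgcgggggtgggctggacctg

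Of the 48 interferon genes with a promoter in the RefSeq table, 17 (35.4%) held the word on either strand, against 2.92% of the 10831 tested genes with a promoter and 2.98% of all 32851 promoters of the table. It stood in 6 of 7 induced GTPases and 7 of 17 antiviral effectors with a promoter, and in 1 of 8 genes of antigen processing. The match did not track the difference gene by gene: Ifit1 and Gbp3 lie among the largest differences, B2m differed by -0.78 and Socs1, with a pair of overlapping matches, by 0.02. A match is a word in the promoter and does not show that a factor was bound there.

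Among the sensors of viral nucleic acid, all 5 genes were lower in HMGN5. Ifih1, which encodes the double-stranded RNA sensor MDA5, read 4.59, 4.29 and 4.39 in HMGN5, 9.15, 9.48 and 9.27 in HMGN2 and 7.45, 7.53 and 7.47 in the vector arrays. The 3 pools did not overlap, with HMGN2 highest and HMGN5 lowest, and HMGN5 lay 29.4-fold below HMGN2 (difference -4.88 ± 0.09, limma adjusted p = 5.94e-21). Ddx58, the RIG-I sensor, differed less, by -2.10 ± 0.08, and there HMGN5 was close to the vector pool (-0.29). Tlr3, an endosomal RNA receptor, and Dhx58, a RIG-I relative, were lower by -2.50 and -3.57, and the DNA sensor Zbp1 by -0.55. The Zbp1 call was lost without HMGN5 replicate 2 (limma adjusted p = 0.077) or HMGN2 replicate 2 (limma adjusted p = 0.079). Its other probe set was called lower as well (-1.23).

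On their brightest probe sets the receptors and kinases that start the pathway differed little, and its transcription factors more. Ifnar1, a chain of the type I interferon receptor, was slightly higher in HMGN5 (7.52, 7.55 and 7.55 against 7.30, 7.25 and 7.25, difference 0.27 ± 0.08), as was the kinase Tyk2 (0.24 ± 0.08). Ifnar2 (-0.13, limma adjusted p = 0.0838) and Jak1 (-0.12, limma adjusted p = 0.117) were not called, although a dimmer Jak1 probe set was called lower (-0.86 ± 0.28). Irf7, the factor that amplifies the interferon response, read 3.95, 4.20 and 3.74 in HMGN5, 8.01, 8.69 and 8.46 in HMGN2 and 5.10, 5.05 and 4.78 in the vector arrays. It thus differed 21.5-fold without overlap. Stat2 (-2.89 ± 0.24), Irf9 (-2.85) and Irf1 (-0.90) were lower in HMGN5 as well. Stat2 in HMGN2 ranged from 6.25 to 7.34, the widest spread of these factors, with the lowest value in replicate 1.

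All 22 antiviral effectors that passed the filter were lower in HMGN5. Ifit1, which binds viral RNA that lacks host cap marks, read 3.75, 3.57 and 3.68 in HMGN5, 9.76, 10.26 and 9.86 in HMGN2 and 7.48, 7.44 and 7.41 in the vector arrays. HMGN5 sat at the floor of the array, with replicate 2 below it, and differed from HMGN2 by -6.30 ± 0.13 (limma adjusted p = 1.80e-20). Oasl2, a 2′-5′-oligoadenylate synthetase relative, read 2.41, 2.26 and 2.15 in HMGN5, below the floor, against 8.94, 9.86 and 9.58 in HMGN2, at least 56.9-fold lower, with 6.59, 6.60 and 6.67 in the vector arrays. Xaf1, a pro-apoptotic zinc finger protein, was 54.5-fold and Rtp4, a chaperone that interferon induces, 57.3-fold lower. The smallest differences in this group, on the brightest probe sets, were those of Eif2ak2, the kinase PKR that halts translation (-0.84 ± 0.19), and Ifit2 (-1.01).

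The interferon-induced GTPases, which act on the membranes around intracellular pathogens, were lower in HMGN5 for 8 of 8 genes, with a median of -3.44. Gbp3 read 4.93, 5.04 and 4.93 in HMGN5, 9.09, 9.77 and 9.45 in HMGN2 and 6.51, 6.67 and 6.66 in the vector arrays, a difference of -4.47 ± 0.11. Irgm2 kept that order with the vector pool nearer to HMGN5: it read 4.06, 3.81 and 4.35 in HMGN5 and 4.74, 4.84 and 4.67 in the vector arrays, both far under the 8.25, 8.90 and 8.71 of HMGN2. Feedback inhibitors were mixed. Usp18, the protease that removes ISG15 and dampens the receptor, was at least 51.5-fold lower in HMGN5, whereas Socs1 (0.02, limma adjusted p = 0.912) and Socs3 (0.16, limma adjusted p = 0.297) were not called, and 1 of the other Socs3 probe sets was called lower.

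Antigen processing genes were lower in HMGN5 for 10 of 10 members but by smaller steps, with a median of -1.36. H2-K1, a class I heavy chain, read 9.15, 9.11 and 8.98 in HMGN5, 10.96, 11.45 and 11.37 in HMGN2 and 9.61, 9.74 and 9.76 in the vector arrays, a 4.53-fold difference. Its light chain B2m differed 1.72-fold, all of it between HMGN2 (12.13, 12.40 and 12.28) and the other pools, since HMGN5 (11.47, 11.48 and 11.51) was not called against vector (-0.05, limma adjusted p = 0.57). Tap1 and Tap2, the peptide transporter, were lower in HMGN5 than in HMGN2 (-1.70 and -0.85) yet higher in HMGN5 than in the vector pool (0.48 and 0.96). Both chemokines that passed differed strongly: Cxcl10, a T-cell attractant, by -4.48 ± 0.08 and Ccl5 by -4.06 ± 0.07. Markers of leukocytes were low to moderate in every pool, with Cd14 at 6.13 to 6.19 in HMGN5 and 5.95 to 6.13 in HMGN2 and Csf1r at 5.17 to 5.44 and 5.15 to 5.25. On the brightest probe sets Cd68 alone of the 8 that passed was called, at least 1.47-fold higher in HMGN5. Another probe set was called higher for Csf1r and for Laptm5. Of 12 markers on the array, 5 lay below the floor in HMGN5 and 6 in HMGN2. Their summed linear intensity was 255 to 263 in HMGN5, 222 to 249 in HMGN2 and 230 to 239 in the vector arrays.

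**Figure D2:**
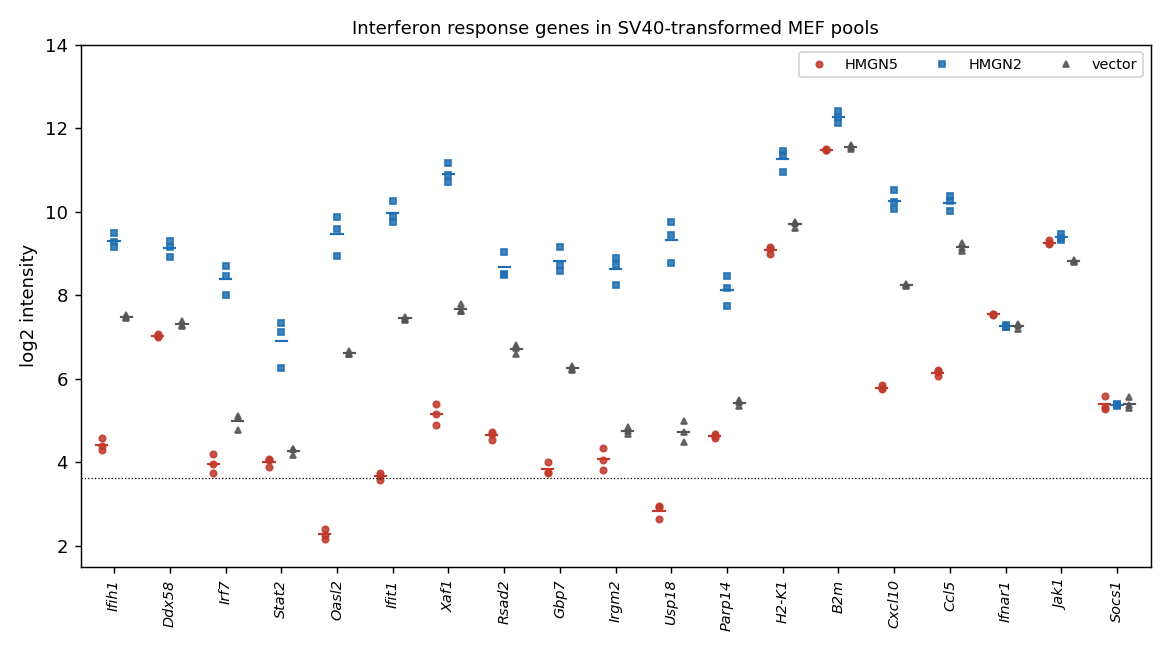
Log2 intensity (vertical axis) of 19 interferon response genes in the HMGN5, HMGN2 and vector arrays, 1 point per array, with the group mean as a bar and the floor of 3.63 as a dotted line. HMGN2 is highest and HMGN5 lowest for most genes, while Ifnar1, Jak1 and Socs1 at the right differ by less than 0.3 between the pools.

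The Id genes differed between the pools as a complete family. Id proteins lack a DNA-binding domain and hold E proteins and other basic helix-loop-helix factors away from DNA, and they are classical targets of bone morphogenetic protein (BMP) signalling through SMAD1 and SMAD5. Id1 read 10.36, 10.21 and 10.24 in HMGN5, 7.38, 7.08 and 7.12 in HMGN2 and 9.62, 9.50 and 9.48 in the vector arrays. HMGN2 stood far below the other 2 pools, and HMGN5 somewhat above the vector pool. The difference was 3.08 ± 0.10 (8.44-fold, limma adjusted p = 1.13e-16). Id2 followed with 9.28, 9.18 and 9.33 in HMGN5, 6.38, 5.73 and 5.81 in HMGN2 and 8.72, 8.55 and 8.74 in the vector arrays, a 9.78-fold difference. Id3 and Id4 were higher in HMGN5 by 2.01 ± 0.09 and 1.63 ± 0.14. Set against the vector pool, which both sides share, Id1, Id2, Id3 and Id4 stood at -2.34, -2.70, -1.57 and -1.57 in HMGN2. In HMGN5 they stood at 0.74, 0.59, 0.44 and 0.05, of which Id4 was not called (limma adjusted p = 0.79).

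The rest of the BMP list was mixed. Beside the 4 Id genes 26 passed the filter, of which 8 were higher and 9 lower, with a median of -0.06. The inhibitory Smads, which BMP signalling also induces, were higher in HMGN5: Smad6 by 0.92 ± 0.11 and Smad7 by 0.50 ± 0.07. For both, HMGN5 was not called against vector (-0.04 and 0.05) and HMGN2 lay below it (-0.96 and -0.45). Of the 7 other antagonists, 4 were higher and 1 lower in HMGN5. Grem1, which binds BMP ligands, read 7.54, 7.46 and 7.73 in HMGN5, 5.17, 4.69 and 4.77 in HMGN2 and 4.30, 4.06 and 4.15 in the vector arrays, a 6.49-fold difference. Fst, follistatin, was at least 2.90-fold higher, and Nbl1 (0.64) and Chrd (0.31) were higher by less. Nog, noggin, was lower (3.19, 3.39 and 3.21 against 3.88, 3.71 and 4.29, at least 1.26-fold), and Bambi (-0.20) and Twsg1 (-0.12) were not called. Other Twsg1 probe sets were called in both directions. The ligand Bmp4 went the other way, with 4.07, 4.03 and 4.11 in HMGN5, 4.93, 4.70 and 5.16 in HMGN2 and 3.82, 3.55 and 3.79 in the vector arrays (-0.86 ± 0.12). The E protein Tcf4, a partner that Id proteins hold, was 3.66-fold lower in HMGN5, and Tcf3 was lower by -0.54 ± 0.17, while Tcf12 was not called on its brightest probe set (-0.10) but lower on its 3 others (-0.73 to -0.53). On their brightest probe sets the 4 transducing Smads differed by 0.31 or less in either direction. The other probe sets of Smad5 were lower by more (-1.08 and -0.99), and Smad1 (0.25) had another probe set called the opposite way, so its direction is uncertain.

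Hox genes were higher in HMGN5 wherever they were called. Hox factors record the position of a cell along the body axis, and their 4 clusters each hold an ordered row of genes. Of 39 Hox genes listed, 33 had a probe set of their own and 22 passed the filter, Hoxa10 and Hoxb5 only through their level in HMGN5. Of the 22, 18 were higher and 0 lower, where 27.8% and 21.5% of all genes were. At an unadjusted limma p below 0.05 the counts were likewise 18 higher and 0 lower. Among the 17 genes above the floor in both pools, 15 were higher and 0 lower. The median difference was 0.68, and 0.59 over the 21 genes with a value once those with only a bound were set to it.

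Hoxb6 differed most among the brightest probe sets, with 7.46, 7.46 and 7.53 in HMGN5, 3.82, 4.03 and 3.90 in HMGN2 and 4.68, 4.53 and 4.53 in the vector arrays, an 11.9-fold difference (3.57 ± 0.10, limma adjusted p = 6.29e-18). Hoxc6, its relative in another cluster, read 7.44, 7.44 and 7.26 in HMGN5 and 4.23, 4.29 and 4.44 in HMGN2, with the vector arrays at 4.23, 4.73 and 4.19. For both genes the HMGN5 arrays stood alone. Hoxa9 differed by 0.86 ± 0.14 on its brightest probe set, but the other one read 8.25, 8.34 and 8.18 in HMGN5 and lay below the floor in the HMGN2 (3.05, 2.78 and 2.81) and vector arrays (3.28, 3.27 and 3.09). Hoxc4 was 4.17-fold and Hoxb2 3.53-fold higher, Hoxa10 at least 2.92-fold. In Hoxb9 the vector pool lay near HMGN5 instead: it read 7.80, 7.69 and 7.64 in HMGN5 and 7.45, 7.50 and 7.56 in the vector arrays, with HMGN2 lower at 6.33, 6.50 and 6.54 (1.25 ± 0.07).

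By cluster, 5 of 6 HoxA genes, 7 of 8 HoxB genes and 5 of 5 HoxC genes that passed were higher, with medians of 0.82, 1.23 and 0.50. Above the floor in both pools, 4 of 4 HoxA, 6 of 6 HoxB and 4 of 4 HoxC genes were higher. Of 3 HoxD genes, Hoxd8 was higher (0.29 ± 0.08), and Hoxd9 (-0.17) and Hoxd13 (-0.15) were not called. Hoxa4 (both pools below the floor) and Hoxb7 (-0.10) were not called either. Against the shared vector arrays, 12 of 22 were higher and 0 lower in HMGN5 (13 and 0 at an unadjusted limma p below 0.05), and 0 higher and 12 lower in HMGN2 (0 and 15). The Hox cofactor Meis2 moved the same way as these genes, with 7.12, 7.14 and 7.19 in HMGN5, 5.42, 5.20 and 5.36 in HMGN2 and 5.71, 5.94 and 5.85 in the vector arrays (1.82 ± 0.10).

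**Figure D3:**
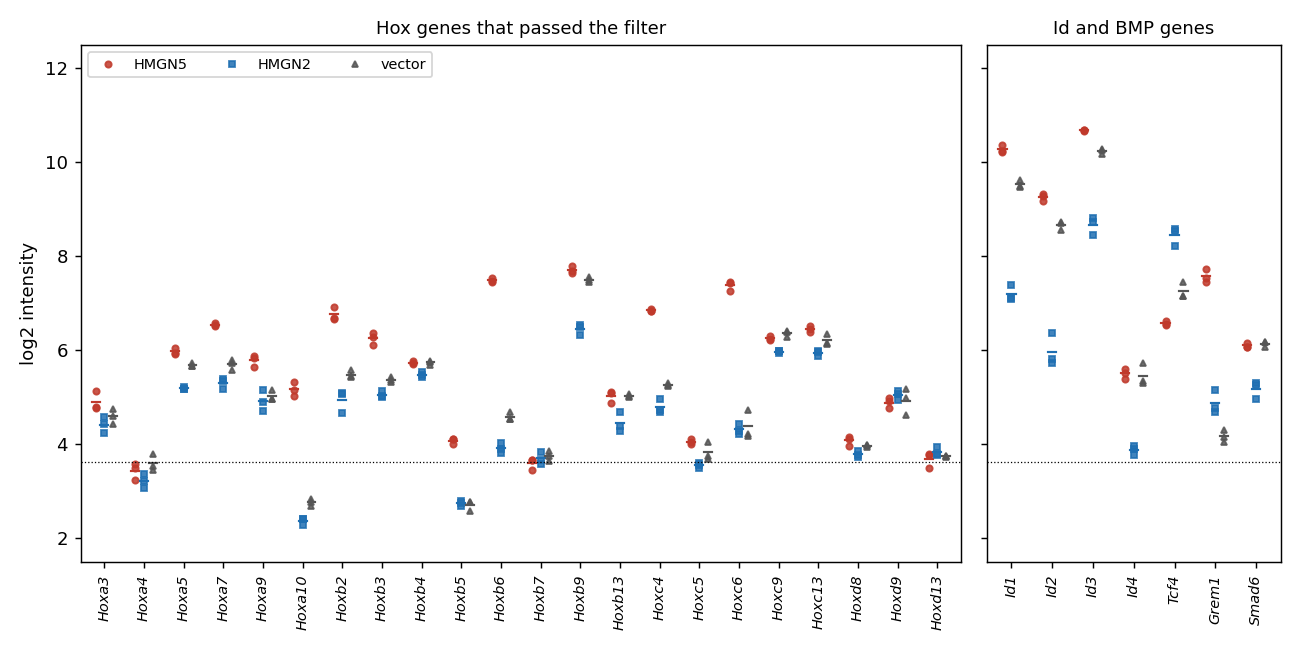
Log2 intensity (vertical axis) of the 22 Hox genes that passed the filter (left) and 7 Id and BMP genes (right) in the HMGN5, HMGN2 and vector arrays, 1 point per array, with the group mean as a bar and the floor of 3.63 dotted. Hoxb6, Hoxc6 and Hoxc4 lie apart in HMGN5, whereas Id1 to Id4 lie apart in HMGN2.

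Other patterning factors were called in both directions, and held some of the largest differences of all genes. Of 96 listed, 89 had a probe set of their own and 77 passed the filter. Of the 77, 26 were higher and 27 lower, where 27.8% and 21.5% of all genes were, with a median of 0.07. At least 2-fold, 7 were higher and 15 lower, beside 330 higher and 405 lower of all 13469 genes. Tbx20, a T-box factor of heart and limb mesenchyme, read 2.03, 2.41 and 2.52 in HMGN5, below the floor, but 8.11, 8.07 and 7.98 in HMGN2 and 7.48, 7.56 and 7.63 in the vector arrays. HMGN5 was thus at least 21.4-fold below HMGN2 (limma adjusted p = 5.94e-21). Alx1, a homeobox factor of craniofacial mesenchyme, was likewise below the floor in HMGN5 (2.70, 2.88 and 2.94) against 7.86, 7.61 and 7.49 in HMGN2 and 6.98, 6.92 and 7.02 in the vector arrays, at least 16.3-fold lower. Six2, which keeps kidney and craniofacial progenitors undifferentiated, was 12.3-fold lower, with HMGN5 arrays between 4.52 and 5.33 and HMGN2 arrays between 8.43 and 8.64.

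The same side held factors of several families. Sox11 was lower in HMGN5 by -2.48 ± 0.11 and Gli2, an effector of Hedgehog signalling, by -2.24 ± 0.13. Osr1 (-1.70), Tbx18 (-1.66), Shox2 (-1.56), Irx5 (-1.43), Irx2 (-1.42) and Irx3 (-1.24), all factors of embryonic mesenchyme, were lower too. The forkhead factors Foxf1 (-1.39), Foxc1 (-1.34) and Foxl2 (-1.29) were lower by similar steps. Their places relative to the vector pool differed. Sox11 in HMGN2 was not called against vector (-0.07), so its difference lay in HMGN5 (-2.55), whereas Foxf1 in HMGN5 was not called against vector (-0.08) and its difference lay in HMGN2 (1.30). For Osr1, Tbx18, Shox2 and Foxc1, HMGN5 lay below and HMGN2 above the vector pool.

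Factors higher in HMGN5 were fewer at this size. Twist2, a helix-loop-helix factor of mesenchyme and dermis, read 10.08, 10.08 and 10.06 in HMGN5, 7.53, 7.52 and 7.40 in HMGN2 and 7.91, 7.95 and 7.86 in the vector arrays (2.59 ± 0.06, limma adjusted p = 2.90e-19). Mecom, the zinc finger factor EVI1, read 7.92, 7.84 and 7.74 in HMGN5, 5.53, 5.06 and 5.18 in HMGN2 and 3.61, 3.71 and 3.78 in the vector arrays, so both pools were above vector and HMGN5 further. Its other probe set, near the floor, was not called (0.05). Gata3 was 3.71-fold and Gata6 at least 3.44-fold higher, Emx2 by 1.63 ± 0.11 and Runx3 by 1.21 ± 0.11. Of 24 patterning genes not called, Tbx5 (0.07), Pitx1 (0.04) and Nr2f2 (-0.03) differed by less than 0.1 on their brightest probe sets, and 1 of the 4 other Nr2f2 probe sets was called higher (0.55).

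**Figure D4:**
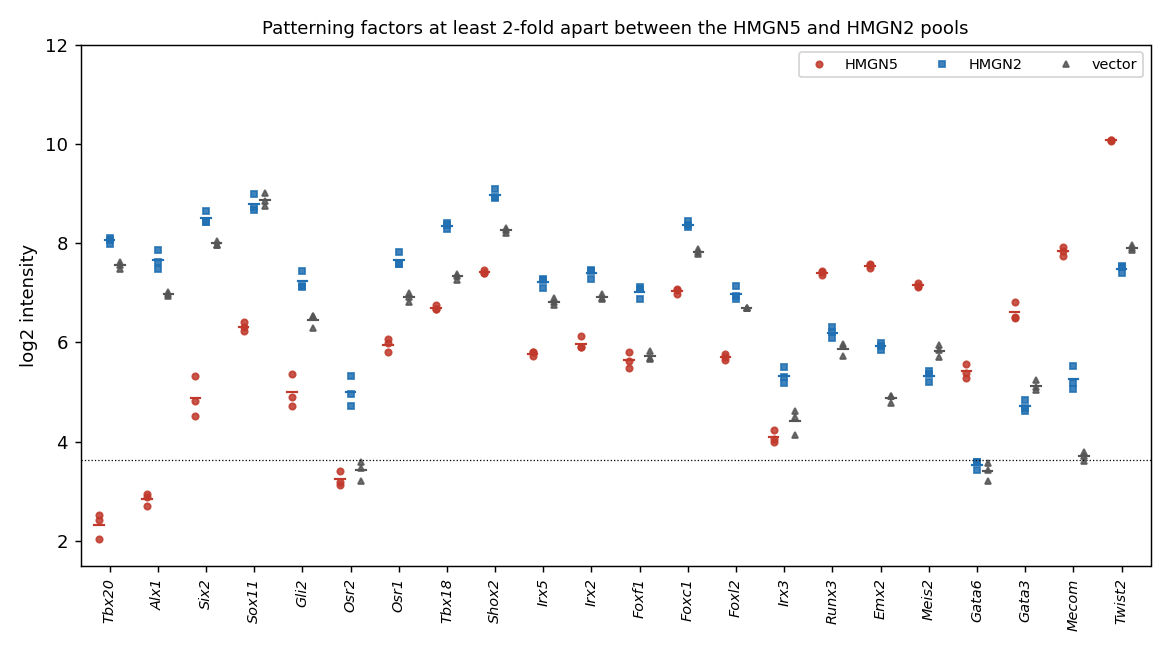
Log2 intensity (vertical axis) of the 22 patterning genes called and at least 2-fold apart between the HMGN5 and HMGN2 pools, with the vector arrays, 1 point per array, the group mean as a bar and the floor of 3.63 dotted. The 15 genes at the left are lower and the 7 at the right higher in HMGN5; Tbx20 and Alx1 fall below the floor in HMGN5 alone.

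Cholesterol synthesis was above the vector pool in both, and more so in HMGN2. Cells make cholesterol from acetyl-CoA through the mevalonate steps and then the sterol steps, and SREBP2 switches the whole path on when sterols run low. Of 42 genes of cholesterol and lipid synthesis, 36 had a probe set of their own and all of these passed. In HMGN5 1 was higher and 22 lower than in HMGN2, with a median of -0.43. Against the shared vector arrays, 32 of 36 were higher and 0 lower in HMGN2 (likewise 0 lower at an unadjusted limma p below 0.05), and 28 higher and 3 lower in HMGN5, with medians of 1.02 and 0.60.

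Of the pathway's enzymes, 4 of 6 mevalonate and 9 of 11 sterol genes were lower in HMGN5, where 21.5% of all genes were. Their promoters carry a word in common, shown here as a description. In each stretch, which is from the gene's own strand and the 250 bases before the RefSeq start (GRCm38.p6), capitals mark CCAAT or its complement ATTGG, the word read by the NF-Y factor that works beside SREBP2. In the last line they mark TCACNCCAC, a sterol regulatory element core.
Lss, chr10:76531523-76531567, plus strand: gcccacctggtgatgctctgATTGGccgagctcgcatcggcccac
Sc5d, chr9:42264301-42264344, minus strand: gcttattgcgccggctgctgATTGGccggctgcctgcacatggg
Idi1, chr13:8885572-8885605, plus strand: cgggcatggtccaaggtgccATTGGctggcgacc
Cyp51, chr5:4104702-4104746, minus strand: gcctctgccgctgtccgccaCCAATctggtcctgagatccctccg
Mvk, chr5:114444235-114444268, plus strand: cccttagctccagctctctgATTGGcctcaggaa
Hmgcs1, chr13:119690286-119690330, plus strand: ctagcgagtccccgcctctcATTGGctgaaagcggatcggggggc
Hmgcs1, chr13:119690194-119690242, plus strand: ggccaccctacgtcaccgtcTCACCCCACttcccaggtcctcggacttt

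The CCAAT word stood on either strand in 14 of 14 mevalonate and sterol genes with a promoter in the table, against 4335 of the 10831 tested genes with one and 33.8% of all promoters. TCACNCCAC stood in 1 of the 28 genes of the whole list that had a promoter, Hmgcs1, against 1.26% of tested genes. Since all 14 held the CCAAT word, it cannot order their differences, which ran from -0.71 for Dhcr7 to -0.05 for Hsd17b7. Sqle, Fdps and Fdft1 have no entry in the table.

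Sqle, squalene monooxygenase and a control point of the sterol steps, differed most among the brightest probe sets. It read 9.51, 9.50 and 9.55 in HMGN5, 10.71, 10.78 and 10.91 in HMGN2 and 10.01, 9.97 and 10.02 in the vector arrays. HMGN5 was thus 2.42-fold below HMGN2 (-1.28 ± 0.07, limma adjusted p = 7.43e-13) and also below vector (-0.48), which set it apart from most of the path. Fdps, farnesyl diphosphate synthase, read 10.27, 10.21 and 10.27 in HMGN5, 11.07, 11.38 and 11.44 in HMGN2 and 9.06, 9.10 and 9.19 in the vector arrays, so both pools were above vector and HMGN2 2.07-fold above HMGN5. Smaller differences were seen for Dhcr7 (-0.71), Sc5d (-0.70), Idi1 (-0.61), Lss (-0.61), Cyp51 (-0.47) and Hmgcs1 (-0.46), and all 6 were above vector in both pools. A dimmer probe set of Lss differed by -1.74 ± 0.12. Mvk (-0.08), Pmvk (-0.12), Nsdhl (-0.21) and Hsd17b7 (-0.05) were not called on their brightest probe sets, but another probe set was called lower for Mvk (-0.43) and for Hsd17b7 (-0.72). The factor Srebf2 itself was lower in HMGN5 by -0.49 ± 0.15. Insig1, which retains SREBP in the endoplasmic reticulum and is induced with the path, was not called (0.16 ± 0.12) and stood at 2.04 above vector in HMGN5 and 1.88 in HMGN2.

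Efflux genes broke the pattern. Abca1, which exports cholesterol and is induced when sterols are plentiful, was the single higher gene, with 6.15, 6.24 and 5.96 in HMGN5, 4.49, 4.29 and 4.34 in HMGN2 and 3.45, 3.23 and 3.64 in the vector arrays (1.74 ± 0.11, 3.35-fold). Abcg1, another exporter, was lower in HMGN5 (-0.90 ± 0.10). In fatty acid synthesis, 6 of 9 genes were lower in HMGN5, among them the desaturases Fads2 (-0.93) and Scd1 (-0.56), while Fasn (0.09) and Acaca (0.02) were not called. The other Acaca probe set was called lower (-0.88 ± 0.32), with HMGN2 arrays spread from 4.02 to 5.70.

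Matrix genes were above vector in both pools, and the pools differed in which. Of 76 listed, 70 had a probe set of their own and 63 passed, Col11a1 only through its level in HMGN5. Of the 63, 29 were higher and 17 lower in HMGN5, where 27.8% and 21.5% of all genes were. The median difference was 0.24, and 0.18 over the 62 genes with a value once those with only a bound were set to it. Against the shared vector arrays, 41 were higher and 7 lower in HMGN5 and 40 higher and 4 lower in HMGN2. Of all genes, 20.7% were higher and 20.8% lower than vector in HMGN5, and 18.7% and 25.6% in HMGN2. Of fibrillar collagen I, Col1a1 read 11.56, 11.63 and 11.56 in HMGN5 and 11.11, 11.56 and 11.55 in HMGN2, overlapping and not called (0.18 ± 0.12), far over the 9.79 to 9.88 of the vector arrays, while its other probe set was called higher in HMGN5 (0.87 ± 0.13). Thbs1 (-0.05 ± 0.18) and Fbln5 (0.40 ± 0.18, limma adjusted p = 0.0652) were not called either.

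Several other matrix genes were clearly higher in HMGN5. Fbln2, which links fibronectin, laminin and elastic fibres, read 10.80, 10.71 and 10.69 in HMGN5, 6.52, 6.56 and 6.77 in HMGN2 and 4.82, 4.78 and 4.61 in the vector arrays, 17.4-fold above HMGN2. Nid1, a basement membrane linker, read 10.09, 10.03 and 10.13 in HMGN5, 8.02, 8.12 and 7.95 in HMGN2 and 4.67, 4.59 and 4.50 in the vector arrays, a stepwise order without overlap. The metalloprotease inhibitor Timp3 was 4.56-fold and the crosslinking enzyme Lox 3.05-fold higher. The 3 collagen VI chains were higher together, Col6a1 by 1.10, Col6a2 by 1.81 and Col6a3 by 1.73, and Col6a3 in HMGN2 was not called against vector (0.04). Col3a1 (1.16 ± 0.12) and Fn1 (0.98 ± 0.07) were higher as well.

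The opposite side held Tgfbi, an adhesion protein induced by TGF-beta, with 4.95, 5.10 and 4.45 in HMGN5, 6.98, 7.03 and 7.08 in HMGN2 and 6.34, 6.17 and 5.92 in the vector arrays (4.60-fold lower, and below vector). Fbln1 (-1.60), the small proteoglycan Ogn (-1.75), Col5a3 (-1.37) and Col4a5 (-1.15) were lower too. Of the 9 crosslinking and processing genes that passed, 5 were lower, among them Plod2 (-0.86) and Loxl1 (-0.52). The count of lower matrix genes was 17 with all arrays and 11 without HMGN2 replicate 3.

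**Figure D5:**
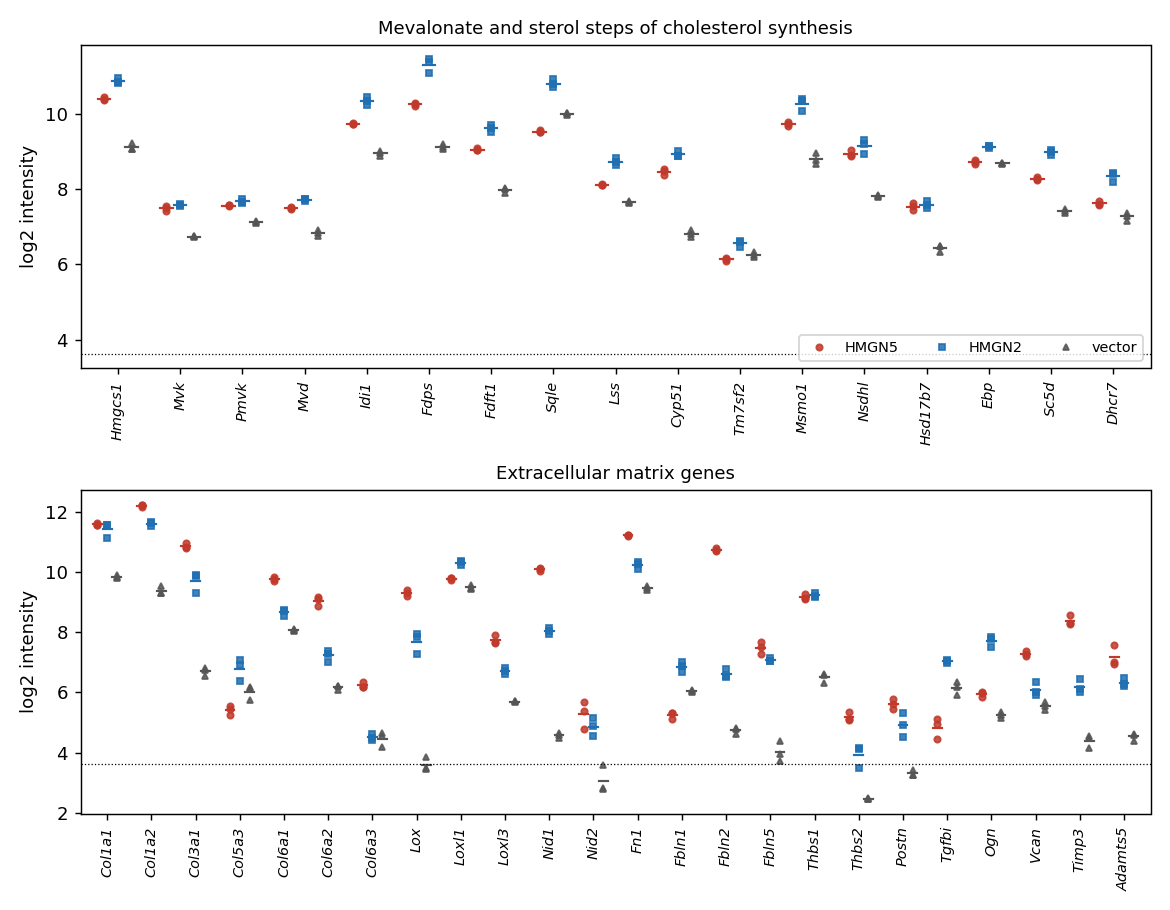
Log2 intensity (vertical axes) of 17 mevalonate and sterol genes (top) and 24 matrix genes (bottom) in the HMGN5, HMGN2 and vector arrays, 1 point per array, with the group mean as a bar and the floor of 3.63 dotted. In the top panel HMGN2 lies at or above HMGN5 and both mostly above vector; in the bottom panel Fbln2, Nid1, Timp3 and the collagen VI chains lie higher in HMGN5, and Tgfbi, Ogn, Fbln1 and Col5a3 higher in HMGN2.

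The largest rises in HMGN5 lay mostly outside these lists. Dlk1, a Notch-related membrane protein of progenitor cells and preadipocytes, read 10.05, 9.85 and 9.69 in HMGN5, 3.91, 3.77 and 3.55 in HMGN2 and 3.77, 4.04 and 3.91 in the vector arrays. It was near the floor in both other pools, with 1 HMGN2 array below it, and higher in HMGN5 by 6.12 ± 0.12 (limma adjusted p = 6.70e-21), and its other probe set was called the same way with a smaller difference of 1.04. Cd24a, a surface glycoprotein of immature cells, read 10.07, 10.19 and 10.24 in HMGN5, 5.36, 4.76 and 5.10 in HMGN2 and 5.65, 5.67 and 5.45 in the vector arrays. Cyp1b1, a cytochrome P450 of hormone and xenobiotic metabolism, was higher by 4.46 ± 0.11, and Tfpi, an inhibitor of blood coagulation, was 16.5-fold higher. Sox2, a pluripotency and neural progenitor factor, read 6.15, 6.16 and 6.20 in HMGN5 and lay below the floor in the HMGN2 (1.79, 1.89 and 1.72) and vector arrays (1.72, 1.80 and 1.69), at least 5.82-fold higher. Stag3, a cohesin subunit of meiosis, was at least 13.7-fold and Ereg, an epidermal growth factor relative, at least 6.77-fold higher.

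Ptn, the growth factor pleiotrophin, and Cyba, a subunit of the NADPH oxidase, stepped up from vector through HMGN2 to HMGN5. Ptn read 9.35, 9.28 and 9.20 in HMGN5, 5.14, 5.21 and 5.67 in HMGN2 and 3.92, 4.28 and 4.19 in the vector arrays. Of the 20 largest falls, most were interferon response genes. The others included Crabp1, which binds retinoic acid in the cytoplasm, with 2.99, 3.49 and 3.03 in HMGN5, 8.03, 8.13 and 8.18 in HMGN2 and 3.70, 3.92 and 3.65 in the vector arrays, so the vector pool lay near HMGN5. Casd1, a sialic acid acetyltransferase, averaged below the floor in HMGN5 alone (3.28, 3.60 and 3.65 against 7.75, 7.80 and 7.67 in HMGN2 and 7.74, 7.77 and 7.83 in the vector arrays), at least 17.2-fold lower, and by -1.13 on its other probe set. Ak4, a mitochondrial adenylate kinase, was lower by at least 17.7-fold on its brightest probe set, but 1 of its 3 other probe sets was called the opposite way (0.30).

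The HMGN5 pool was also set beside the other SV40-transformed groups, which are the vector pool and those labelled HMGN1 OE, HMGN3a OE, HMGN5SE OE, HMGN1_N2swap and HMGN1_N3swap. For each of the 20 largest rises its mean was the highest of the 8 groups, and for each of the 20 largest falls the lowest, a description of genes chosen for a large difference. Some of the rises, among them Sox2, Stag3 and Ereg, passed the filter only through HMGN5, so their place was set in advance. Such genes numbered 89 of the 13469 tested. Dlk1 averaged 9.87 in HMGN5 and 3.68 to 3.91 in the 6 other groups (vector included), Cd24a 10.17 against 4.93 to 5.59, and Tbx20 2.32 against 7.35 to 7.75. Over lists, the HMGN5 mean was the lowest of 8 for 43 of 62 interferon genes and the highest for 14 of 22 Hox genes, where it was lowest for 19.3% and highest for 19.1% of all genes. HMGN2 was the highest of 8 for 25 of 36 cholesterol and lipid genes and 18 of 62 interferon genes, where it was highest for 13.3% of all genes. In the interferon list another group, labelled HMGN1 OE, was near HMGN2, with Xaf1 at 11.48 against 10.91 and Oasl2 at 10.22 against 9.46. Crabp1 was not high in HMGN2 alone, since it averaged 8.11 there, 9.44 in HMGN1_N2swap and 9.58 in HMGN1_N3swap. For Id2 the low level belonged to HMGN2: it averaged 5.97 there and 8.25 to 8.67 in the 6 other groups. The labels give 1 fibroblast line for all 8 groups, and whether the cells of the HMGN5 pool or of any other pool are of that origin was not tested.

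Markers of cell type were read in the same arrays. Of 11 fibroblast markers on the array, 3 lay below the floor in each of the 3 groups, and their summed linear intensity was 20475 to 20597 in HMGN5, 20322 to 21291 in HMGN2 and 16904 to 17320 in the vector arrays. Single markers differed. Thy1, a surface marker of many fibroblasts, read 3.45, 3.49 and 3.67 in HMGN5, 6.53, 6.91 and 6.51 in HMGN2 and 3.94, 3.99 and 3.91 in the vector arrays, at least 8.11-fold lower in HMGN5. Pdgfrb was lower (-1.41 ± 0.10) and Pdgfra at least 2.33-fold higher. Pdgfra passed the filter only through its level in HMGN5, so its place was set in advance. Summed markers of adipocytes were 104 to 116 in HMGN5, 54.1 to 54.7 in HMGN2 and 50.6 to 52.1 in the vector arrays. Of the 3 that passed the filter, Pparg (at least 2.67-fold) and Lpl (3.41-fold) were higher in HMGN5, and Cebpa (-0.33) was not called. Pparg passed only through its level in HMGN5. Adipoq and Fabp4, which define mature adipocytes, did not pass the filter. Summed neural and glial markers were 474 to 496 in HMGN5 and 332 to 342 in HMGN2. Of the 7 that passed the filter, 2 were higher, Sox2 and Tubb3 (2.14 ± 0.14), and 2 lower, Map2 (-0.60) and Nes (-0.52). Sox2 passed only through its level in HMGN5. In bulk RNA, fewer cells of a kind and less RNA per cell cannot be told apart, and the part of these markers in the results above was not tested.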

How the data were processed

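The authors deposited 1 linear intensity per probe set and array, computed by RMA according to the notes on processing that the submitters gave. The RMA version and settings are not given in the sources used here. All 51 value columns belong to the series (0 unused), and the 24 of SV40-transformed MEFs were analysed as log2 values without further normalization.

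Of 45101 probe sets, 64 were array controls, 34945 named 1 gene, 932 several and 9160 none. Symbols were matched to RefSeq by gene identifier, which gave 18193 genes. Probe sets were kept where the mean of at least 1 of the 8 groups reached the 40th percentile of the group means (log2 3.63), and the brightest remaining probe set stood for a gene, which left 13469 genes.

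Group means were fitted without covariates by lmFit and eBayes of limma 3.58.1 under R 4.3.3, with tables read by version 1.17.8 of data.table. All p-values are two-sided, with Benjamini-Hochberg adjustment over all genes, and genes with an adjusted p under 0.05 were called. The procedure was also tested on simulated data. Levels of different probe sets were not compared with each other.

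The rule for named genes takes the Hmgn family, the 20 called genes highest and the 20 lowest in HMGN5 by difference where arrays did not overlap, every member of the lists of interferon response, cholesterol and lipid synthesis, Hox, Id and BMP and patterning genes, and up to 10 called members of the lists of matrix, retinoic acid, contractile and cell cycle genes and of each marker list. Matrix genes beyond those 10 were named after their values had been seen. The members and lists were chosen with earlier results of these data known. The floor for bounds, the place of each pool among the 8 groups and the promoter words were likewise chosen after values had been seen.

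Promoter words were searched on both strands in the 250 bases before each gene start in a RefSeq table of 32851 promoters of 300 bases (GRCm38.p6). Plots used python 3.11.15 with pandas 2.3.3 and matplotlib 3.10.9. Alternatives were no filter or a stricter filter, each probe set taken separately, a second quantile normalization, a replicate block, a fit of only the compared groups, the Actb 3' minus 5' difference as a covariate, and leaving out each array.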

Additional observations from a re-analysis of the deposited data

How the results depend on the processing

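The count of 6636 genes called between HMGN5 and HMGN2 ranged from 5873 to 6596 when each array of the 3 groups was left out, that of HMGN5 against vector (5593) from 4925 to 5615, and that of HMGN2 against vector (5969) from 4983 to 5907. With every one of 29087 probe sets on its own, 13217, 9692 and 11575 were called, since more features were tested. Under that setting a list member counts once any of its probe sets is called, and 2 cholesterol and lipid genes were higher and 15 Id and BMP genes lower in HMGN5, in place of 1 and 9. When the fit held just the groups compared, 2 cholesterol and lipid genes were higher. Leaving out single arrays gave 55 to 57 interferon genes lower and 2 higher, 22 to 23 cholesterol and lipid genes lower and 1 to 2 higher, 18 Hox genes higher, 9 to 12 Id and BMP genes higher and 7 to 9 lower, 24 to 27 patterning genes higher and 26 to 27 lower, and 27 to 29 matrix genes higher and 11 to 16 lower. The ends at 2 cholesterol and lipid genes and 11 matrix genes came without HMGN2 replicate 3, and the cause was not tested. With the Actb difference as a covariate 6758 genes were called between the pools. Quantile normalization again gave 6732. The replicate numbers do not pair the arrays: between same-numbered arrays of different groups the deviations from the group means correlated at -0.07 to 0.06. With the replicate block 6544, 5521 and 5888 genes were called, and no named gene changed its call. Of 251 named genes that were called, 235 kept the call in every alternative that gave them a value, and so did all 134 that were at least 2-fold apart. No named gene turned its direction in those alternatives. Under the stricter filter 259 of 305 named genes had a value. Of 120 called named genes with other probe sets past the filter, 89 had all of them called the same way and 4 had 1 or more called the opposite way (Ak4, Smad1, Foxp1 and Epcam).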

Other observations

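Contractile genes, which the text has not described, were mostly above vector in both pools. Of 17 that passed the filter, 13 were higher and 1 lower than vector in HMGN5 and 11 higher and 1 lower in HMGN2, and 8 were higher and 4 lower in HMGN5 than in HMGN2, with a median of 0.20. Acta2, smooth muscle actin, read 11.65, 11.66 and 11.60 in HMGN5, 10.85, 10.72 and 10.87 in HMGN2 and 8.11, 8.15 and 7.94 in the vector arrays. Tagln, an actin-binding protein of smooth muscle, went the other way, with 9.01, 9.06 and 9.06 in HMGN5 and 9.72, 9.47 and 9.63 in HMGN2, over 7.59, 7.60 and 7.50 in the vector arrays. Myl9, a regulatory myosin light chain, was lower in HMGN5 by -1.73 ± 0.15, and Ccn2, a matricellular growth factor, was higher by 0.52 ± 0.09. Of 11 retinoic acid genes other than Crabp1 that passed, 1 was higher (the receptor Rxrb, 0.46 ± 0.06) and 2 lower.

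Mitosis and DNA replication genes differed by small steps. Of 24 that passed, 6 were higher and 9 lower in HMGN5, with a median of -0.07, and the largest differences were -0.48 ± 0.07 for Ccnb2, a mitotic cyclin, and 0.44 ± 0.07 for Cdc45, a replicative helicase factor. Xist, the RNA of X inactivation, read 4.08, 4.34 and 4.36 in HMGN5, 6.55, 6.20 and 6.16 in HMGN2 and 4.85, 4.91 and 4.70 in the vector arrays, while the 3 Y-linked genes on the array lay below the floor in all 3 groups. Xist was not high in HMGN2 alone, since it read 7.78, 7.30 and 6.88 in HMGN1_N2swap and 6.89, 7.19 and 7.01 in HMGN1_N3swap. Of 5 epithelial markers that passed, 1 was lower in HMGN5, the keratin Krt19 (-0.66 ± 0.14). The 2 higher ones were Krt14 (at least 1.64-fold) and Epcam (0.31), and another Epcam probe set was called the opposite way. Sox9, a cartilage factor, was higher in HMGN5 (0.68 ± 0.08).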
